A study of Caenorhabditis elegans with 4 samples.

Results

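The genes described here are the 10 core genes of sex determination in Caenorhabditis elegans that also set germ cell fate: her-1, tra-1, tra-2, tra-3, fem-1, fem-2, fem-3, fog-1, fog-2 and fog-3. They were chosen by symbol, and all 10 had a row among the 20182 genes of the count table. Total RNA from whole young adult worms was sequenced in 4 libraries, 2 of them from N2, the usual wild-type strain of this species, and 2 from animals with the alleles cey-4(ok858) and cey-1(rrr12), called the mutant here. No other allele or treatment is named in the labels for either strain. The mutated genes encode Y-box proteins, which bind RNA through a cold shock domain. Libraries held 24717311 to 33009708 counts.

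In this species a chain of negative steps sets sex, and the hermaphrodite germline uses the same chain to make sperm first and oocytes afterwards. The secreted protein HER-1 inhibits the membrane receptor TRA-2 in males. TRA-2 in turn holds back the FEM proteins, which, when free, send the transcription factor TRA-1 for destruction. In germ cells FOG-1 and FOG-3 act at the end of the chain to commit cells to sperm. By these roles her-1, fem-1, fem-2, fem-3, fog-1, fog-2 and fog-3 were taken as the 7 promoters of sperm fate, and tra-1, tra-2 and tra-3 as the 3 promoters of oocyte fate.

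For 7 of the 10 genes no difference between the strains was called. A rise in the mutant was called for 3 promoters of sperm fate, her-1, fog-3 and fem-3, and 0 of the 10 genes were called lower. Of all 13944 genes tested, 13.1% were called higher and 13.3% lower (edgeR quasi-likelihood F test, p adjusted by Benjamini-Hochberg, threshold 0.05). The calls of her-1 and fog-3 rested on few counts and that of fem-3 lay close to the threshold, so their size is given below with each library left out. Levels are in CPM, the count relative to the TMM-scaled library total, and each log2 fold change sets the mutant over wild type, with its standard error. Whole worms were sequenced, so a difference in the number of cells that make a transcript and a difference in RNA per cell cannot be told apart.

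The labels were checked first against the mutated genes. The level of cey-4 fell from 774 ± 17.4 to 10.7 ± 0.831 CPM (SD, n = 2 libraries) and that of cey-1 from 137 ± 10.1 to 23.1 ± 2.06 CPM. No label says that the libraries of a strain came from separate cultures, and p-values thus measure only the spread between these libraries, which may be technical. Markers of the adult hermaphrodite were present in each library. Yolk genes summed to 36300 to 67700 CPM and oocyte markers to 10200 to 12900 CPM. The 12 markers of the male soma and seminal fluid in the table summed to 2.5 to 3.17 CPM, with cwp-2 at 0 in every library.

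Per kilobase of exon the 10 genes spanned a wide range in wild type, as the plot of levels by library shows. The mean was 42.5 CPM per kb for fem-1, 33 for fem-2, 27.7 for fem-3, 23.6 for fog-2, 20.3 for tra-1, 19.5 for tra-2, 16 for tra-3 and 9.92 for fog-1. It was 0.539 for fog-3 and 0.103 for her-1. Neighbours in this order had separate libraries, except tra-1 and tra-2, whose values overlapped. In the mutant fem-3 stood at 34.3 and fem-2 at 32.4 CPM per kb, the reverse of the wild-type order, and their libraries overlapped. The mutant libraries of fog-2 and tra-1 overlapped too, as did those of tra-1 and tra-2. In wild type fem-1 stood at percentile 77.8 of all tested genes by CPM per kb, fog-1 at 50.2, fog-3 at 8.9 and her-1 at 0.3.

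**Figure D1:**
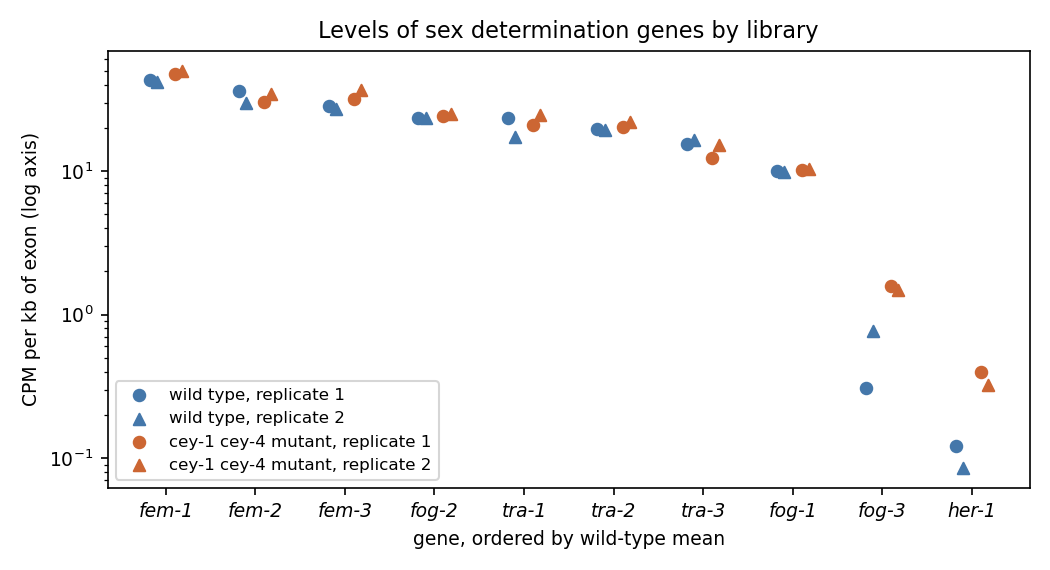
Level of each of the 10 genes in CPM per kb of exon (log axis), 1 symbol per library, with wild type in blue and the mutant in orange. The mutant libraries of fog-3 (1.49 and 1.59) and her-1 (0.322 and 0.398) lie above both wild-type libraries, while 8 genes lie between 9.83 and 50.1 in all 4.

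At the top of the chain, her-1 (WBGene00001842; chromosome V, 9697015 to 9702035, plus strand, WBcel235) was nearly absent from wild-type adults. Wild-type libraries held 4 and 3 counts and mutant libraries 15 and 9, or 0.136 and 0.0961 against 0.449 and 0.363 CPM. Both mutant libraries were above both wild-type libraries. The log2 fold change was 1.79 ± 0.53 (95% CI 0.63 to 2.96, edgeR adjusted p = 0.0291). No wild-type library reached the level that the expression filter asks for (0.327 CPM before scaling), so the gene was tested only because it was higher in the mutant. The call was not made when any of the 4 libraries was left out, with log2 fold changes of 1.57 to 2.05 and edgeR adjusted p-values of 0.0627 to 0.214. On the authors' log2 scale, which compresses low counts, the difference was 0.7 (limma adjusted p = 0.0516), and DESeq2 gave the gene no adjusted p.

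The receptor gene tra-2 (WBGene00006605; chromosome II, 6955384 to 6965673, minus strand) encodes the protein that HER-1 inhibits. It had 99.7 and 97.6 CPM in wild type against 102 and 112 CPM in the mutant. The groups did not overlap, and the log2 fold change of 0.11 ± 0.09 (95% CI -0.09 to 0.32) did not pass (edgeR adjusted p = 0.401). It shares 26 bases of exon with ceh-38 on the opposite strand, and the labels do not state whether counting used strand. The log2 fold change of ceh-38 was 0.17 ± 0.13. The calpain protease gene tra-3 (WBGene00006606; chromosome IV, 14436445 to 14444183, minus strand), whose product cleaves TRA-2, had 38.7 and 41.2 CPM in wild type against 31 and 38.1 CPM in the mutant. Its log2 fold change of -0.21 ± 0.12 (95% CI -0.47 to 0.05) did not pass either (edgeR adjusted p = 0.216), and the mutant libraries differed by more, 0.30 on the log2 scale.

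The fem genes encode the proteins that TRA-2 restrains. FEM-1 is an ankyrin-repeat protein that presents TRA-1 to a ubiquitin ligase built on the cullin CUL-2, FEM-2 is a protein phosphatase and FEM-3 is the FEM protein that TRA-2 binds. Transcripts of fem-3 (WBGene00001413; chromosome IV, 9104966 to 9107607, plus strand) were at 47.4 and 45.3 CPM in wild type against 53.7 and 61 CPM in the mutant. Both mutant libraries were higher, by a log2 fold change of 0.31 ± 0.10 (95% CI 0.08 to 0.53, edgeR adjusted p = 0.0484), a fold of 1.24. The call was not made without wild-type replicate 2 (0.29), mutant replicate 1 (0.41) or mutant replicate 2 (0.24), nor by DESeq2 (0.32, adjusted p = 0.0645).

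The other fem genes did not pass. Levels of fem-1 (WBGene00001411; chromosome IV, 5533140 to 5537962, minus strand) were 101 and 98.6 CPM in wild type against 112 and 118 CPM in the mutant. These groups did not overlap, and the log2 fold change was 0.20 ± 0.09 (95% CI 0.00 to 0.40, edgeR adjusted p = 0.126). For fem-2 (WBGene00001412; chromosome III, 632019 to 634626, minus strand) the levels of 64.8 and 53.6 CPM in wild type enclosed the 54.7 and 61.5 CPM of the mutant. Its log2 fold change was -0.03 ± 0.12 (95% CI -0.28 to 0.23).

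At the end of the somatic chain, tra-1 (WBGene00006604; chromosome III, 11170890 to 11195201, minus strand) encodes a zinc-finger transcription factor of the Gli family. It had 117 and 85.6 CPM in wild type against 104 and 123 CPM in the mutant, so the groups overlapped. The log2 fold change was 0.16 ± 0.14 (95% CI -0.15 to 0.48, edgeR adjusted p = 0.437), and wild-type replicate 2 was lower than replicate 1 by 0.45. The value turned on the wild-type libraries: without wild-type replicate 1 the log2 fold change was 0.41 and called (edgeR adjusted p = 0.00257), and without wild-type replicate 2 it was -0.03. The transcripts of tra-1 and tra-2 are the longest of the 10, with 4987 and 5062 bases of exon, and over all tested genes the median log2 fold change was -0.19 for exon lengths up to 1 kb and 0.19 over 4 kb. With each library's trend on exon length removed, both genes turned to the other side of 0, with log2 fold changes of -0.03 and -0.09, while fem-3 (0.34), fog-3 (1.63) and her-1 (1.88) remained called higher.

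**Figure D2:**
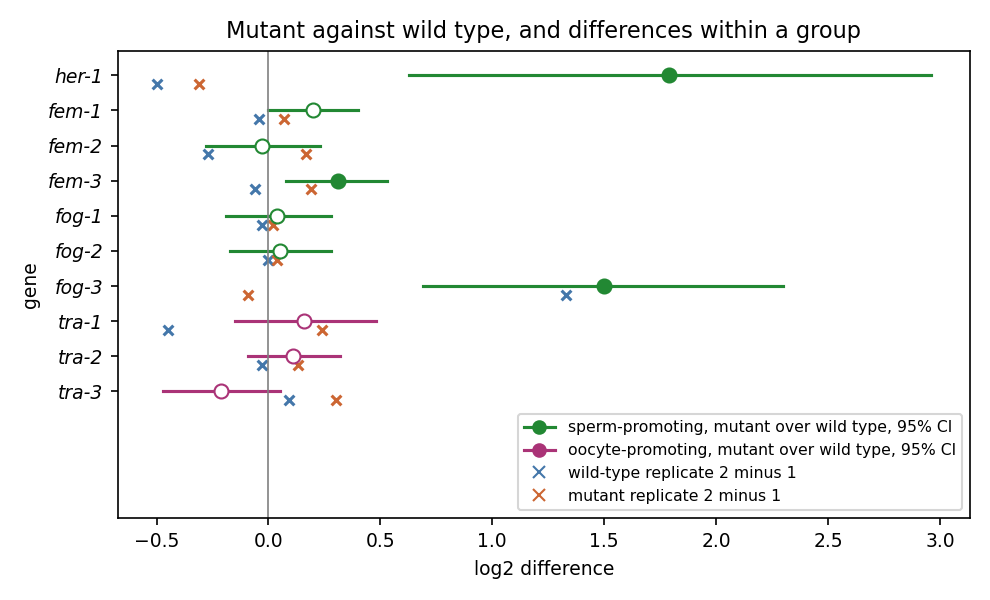
Log2 fold change of each gene, mutant over wild type, with its 95% confidence interval (filled circles: called), and crosses for the log2 difference between replicates of a strain. The called genes are her-1 (1.79), fog-3 (1.5) and fem-3 (0.31), and the wild-type replicates of fog-3 differ by 1.33.

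The fog genes act in the germline. FOG-3, a member of the Tob family, and FOG-1, an RNA-binding protein of the CPEB family, are needed for germ cells to become sperm, whereas FOG-2 is an F-box protein that with GLD-1 represses tra-2 mRNA in the hermaphrodite germline. Wild-type libraries held 9 and 24 counts of fog-3 (WBGene00001483; chromosome I, 10016765 to 10018121, plus strand) and mutant libraries 53 and 37, or 0.307 and 0.769 against 1.58 and 1.49 CPM. Both mutant libraries lay above wild type, with a log2 fold change of 1.5 ± 0.36 (95% CI 0.69 to 2.3, edgeR adjusted p = 0.0127), a fold of 2.82. The wild-type replicates themselves differed by 1.33 on the log2 scale. Without wild-type replicate 1 the log2 fold change was 1.0 and without wild-type replicate 2 it was 2.33, both called, and it was not called without mutant replicate 1 (1.46, edgeR adjusted p = 0.0922) or mutant replicate 2 (1.57, edgeR adjusted p = 0.0709). The expression filter was passed by both mutant libraries and 1 wild-type library. DESeq2 called it too (1.53, adjusted p = 0.0344).

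The level of fog-1 (WBGene00001481; chromosome I, 3211046 to 3217267, plus strand), whose protein acts beside FOG-3, differed little between libraries. It had 21.2 and 20.8 CPM in wild type against 21.5 and 21.8 CPM in the mutant, a log2 fold change of 0.04 ± 0.11 (95% CI -0.19 to 0.28, edgeR adjusted p = 0.802). For fog-2 (WBGene00001482; chromosome V, 20199254 to 20200648, plus strand) the libraries held 27.6 and 27.6 CPM in wild type against 28.2 and 29.1 CPM in the mutant, a log2 fold change of 0.05 ± 0.10 (95% CI -0.17 to 0.28). Its closely similar neighbour ftr-1 starts upstream on the same strand, and reads that fit both genes may have been split or dropped, so both counts are uncertain. The levels of ftr-1 were 10.6 and 10.5 CPM in wild type against 10.9 and 10.5 CPM in the mutant (0.03 ± 0.12).

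Set side by side, the promoters of sperm fate ran from -0.03 to 1.79 with a median log2 fold change of 0.20, and those of oocyte fate from -0.21 to 0.16 with a median of 0.11, beside -0.01 over all tested genes. Both mutant libraries lay above both wild-type libraries in 6 of the 7 promoters of sperm fate and 1 of the 3 promoters of oocyte fate, and below them in 1 of the 3. Of all tested genes 30.6% lay above, 33.5% below and 64% on either side. The 6 include her-1 and fog-3, which were tested through their mutant libraries. They also include fog-1 and fog-2, with log2 fold changes of only 0.04 and 0.05. The called count was 3 of 7 against 0 of 3, and no difference between the classes was tested. Among genes with a mean under 50 counts, as her-1 and fog-3 have, 9.13% were called higher and 5.01% lower. When a mean of 50 counts or more was asked for, 1 of the 8 genes left, fem-3, was called higher and 0 lower, beside 15% and 13% of the 11228 genes tested.

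The balance of FEM-3 against TRA-2 activity in germ cells is the textbook switch between sperm and oocyte fate. RNA of whole worms does not measure that activity. The count ratio of fem-3 to tra-2 needs no scaling for library size. A trend on exon length does not cancel in it, since the genes have 1674 and 5062 bases of exon. The fem-3 to tra-2 ratio per kb was 1.44 and 1.40 in the wild-type libraries and 1.59 and 1.65 in those of the mutant, so both mutant libraries were higher. On the log2 scale of counts the mean was -1.09 ± 0.0242 in wild type and -0.90 ± 0.0414 in the mutant (SD, n = 2), a difference of 0.19. An exact two-sided permutation test gave p = 0.33, the smallest that 2 against 2 libraries allow. The difference was 0.16 to 0.22 with any library left out, and 0.43 with the length trend removed, an alternative added after seeing the data.

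Upstream of her-1, the early sex signal had 2 of 7 genes (28.6%) called higher and 1 (14.3%) lower. The shares over all tested genes were 13.1% and 13.3%. The switch gene xol-1, which directs male development in embryos and acts before her-1, rose from 0.239 and 0.352 to 0.987 and 0.685 CPM (log2 fold change 1.51 ± 0.40, edgeR adjusted p = 0.0182). Like her-1 it rested on few counts, 7 and 11 against 33 and 17, and only 1 wild-type library passed the expression filter, so it was tested through the mutant libraries. It was not called without wild-type replicate 1 (1.26), mutant replicate 1 (1.21) or mutant replicate 2 (1.75). The X-linked signal gene fox-1, which represses xol-1, fell from 5.46 ± 0.286 to 3.16 ± 0.151 CPM (-0.79 ± 0.16, edgeR adjusted p = 0.00589), a call not made without mutant replicate 1 (-0.73). The gene sdc-3, whose product represses her-1 in hermaphrodites, rose from 47.5 ± 1.03 to 59.4 ± 0.718 CPM (0.32 ± 0.09, edgeR adjusted p = 0.0269), but was not called without either mutant replicate (0.32 and 0.37) or with the length trend removed (0.09).

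Downstream of TRA-1, mab-3 is repressed by TRA-1 in hermaphrodite soma and drives male features. It rose from 0.375 and 0.224 to 1.05 and 0.927 CPM (log2 fold change 1.72 ± 0.37, edgeR adjusted p = 0.00742), and was not called without mutant replicate 1 (1.64) or by DESeq2 (1.74, adjusted p = 0.0514). Only 1 wild-type library passed the expression filter for mab-3, so like fog-3 it was tested through the mutant libraries. Of the other 3 somatic targets listed, 2 had lower values in both mutant libraries than in both wild-type libraries. The level of ceh-30 was 0.614 and 0.641 CPM in wild type against 0.419 and 0.363 CPM in the mutant, and its log2 fold change of -0.67 ± 0.36 (95% CI -1.47 to 0.14, edgeR adjusted p = 0.211) did not pass. For egl-1 the wild-type libraries held 6 and 10 counts and the mutant libraries 3 and 1, and the gene was below the filter, as was dmd-3 with 0 to 2 counts. The summed level of the markers of the male soma and seminal fluid was 2.80 and 2.98 CPM in wild type against 3.17 and 2.50 CPM in the mutant, so the mutant libraries enclosed those of wild type, and 0 of the 4 tested were called.

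Outside the 10 genes, no listed regulator of the switch between sperm and oocytes was called. Of 15 tested genes of the sperm-to-oocyte switch, most of which act by repressing fem-3 or sperm fate, 0 were called in either direction. Over all tested genes the share called was 26.4%. The 15 genes had log2 fold changes of -0.17 to 0.25 and a median of 0.02, with mog-1 highest (0.25 ± 0.09, edgeR adjusted p = 0.0554). Under the other settings run, 0 to 2 were called higher and 0 lower. Among them fbf-1 and fbf-2, which encode the PUF proteins that repress fem-3 mRNA and were picked out for that role after their values were seen, had log2 fold changes of 0.02 ± 0.11 (95% CI -0.23 to 0.27) and 0.00 ± 0.12 (-0.26 to 0.27), and fbf-1 shares 15 exon bases with a gene on the opposite strand. The most abundant, larp-1, had -0.10 ± 0.10. Of 4 other germline promoters of sperm fate 0 were called, and gld-1, which encodes the repressor of tra-2 mRNA that FOG-2 binds, had 452 and 402 CPM in wild type against 347 and 401 CPM in the mutant (-0.19 ± 0.10, edgeR adjusted p = 0.209). Of 12 partners and turnover factors of the FEM and TRA proteins 0 were called, with a median of -0.06, and the most abundant, ubxn-3, had -0.17 ± 0.12. In this list and that of the 4 other promoters, genes were called only in fits with a wild-type library left out.

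Sperm markers, also the longest list, had the most called genes, as the plot by gene list shows. Of 60 rows of sperm markers, 48 were tested. Of these, 29 (60.4%, beside 13.1% of all tested genes) were called higher and 0 lower, with a median log2 fold change of 0.73. Their summed level was 676 and 702 CPM in wild type against 968 and 954 CPM in the mutant, and 9 rows were at 0 in every library. For 2 of the 29, msp-152 and 1 of the rows of ssp-9, no wild-type library passed the expression filter, so they were tested only because they were higher in the mutant. With a mean of at least 50 counts 26 of 36 tested rows were called higher, beside 15% of all genes tested with that filter. The count was 12 without mutant replicate 1 and 24 to 29 without any other library. Part of the list, the msp genes, consists of near-identical copies whose reads may be split, so single msp values are uncertain. The sperm genes nspd-6 and spe-49 rose by log2 fold changes of 1.54 ± 0.15 and 1.51 ± 0.19 (spe-49 shares 63 exon bases with srn-1 on the opposite strand). The transcription factor gene elt-1, which also acts in sperm genesis, rose from 6.65 ± 1.16 to 12.7 ± 0.166 CPM (0.94 ± 0.15, edgeR adjusted p = 0.00157), and spe-44, a regulator of sperm genes, had 0.26 ± 0.13 (edgeR adjusted p = 0.172). Whether these sperm transcripts have a part in the higher fog-3, her-1 and fem-3 levels was not tested.

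**Figure D3:**
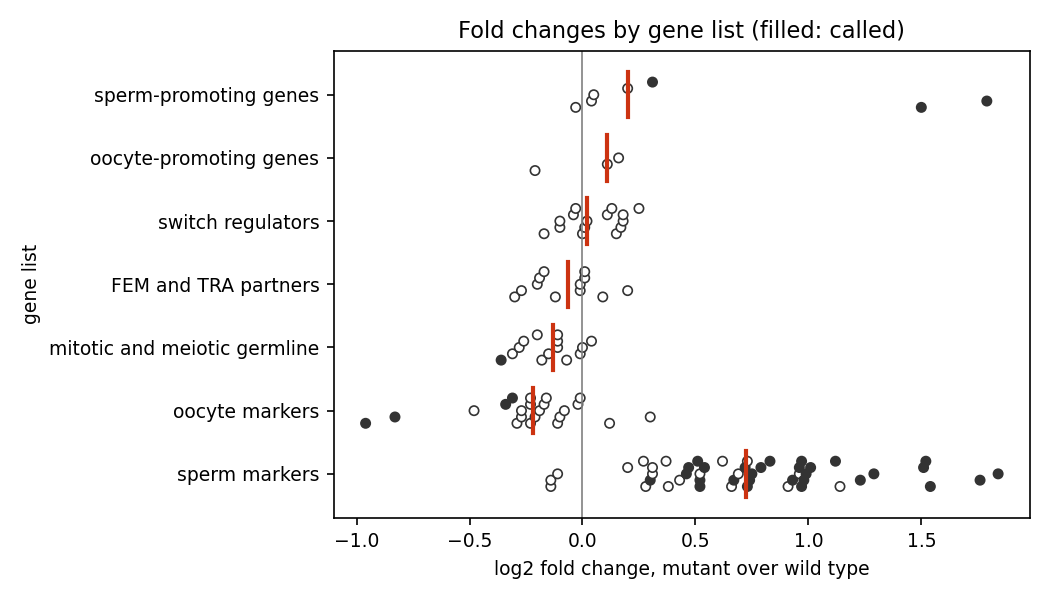
Log2 fold changes, mutant over wild type, of the tested genes of the lists named on the left, a part of all lists. Each gene has 1 circle (filled: called), and a red bar marks the list's median. Sperm markers have a median of 0.73, sperm-promoting genes 0.20, oocyte-promoting genes 0.11, switch regulators 0.02 and oocyte markers -0.22.

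Of 22 oocyte markers 4 (18.2%) were called lower and 0 higher, a share of lower calls near the 13.3% of all tested genes. Both mutant libraries lay below both wild-type libraries in 15 of the 22 and above them in 1, beside 33.5% and 30.6% of all tested genes. The oocyte markers had a median log2 fold change of -0.22. Their summed level was 12900 and 11600 CPM in wild type against 10200 and 10600 CPM in the mutant. The eggshell genes perm-2 (-0.96 ± 0.11) and cpg-3 (-0.83 ± 0.10) fell most among them, and each shares a few exon bases with a gene on the opposite strand (25 and 36). The count of lower members was 2 without either mutant replicate and 12 without wild-type replicate 2, and with the length trend removed 8 were lower and 1 higher. Of 14 markers of the mitotic and meiotic germline 1 (7.14%) was called lower and 0 higher, beside 13.3% and 13.1% of all tested genes. Their median log2 fold change was -0.13. In 9 of the 14 both mutant libraries lay below both wild-type libraries and in 0 above, beside 33.5% and 30.6% of all tested genes. Yolk genes summed to 56700 and 36300 CPM in wild type against 63000 and 67700 CPM in the mutant. In 5 of the 6 yolk genes both mutant libraries lay above both wild-type libraries, and in 1, vit-3, below them. Of 6 yolk genes 3 (50%) were called higher, beside 13.1% of all tested genes. The count was 0 when either mutant library was left out, 5 when wild-type replicate 1 was and 2 when replicate 2 was, and with the length trend removed 0 were higher and 1 lower. Embryo markers summed to 4.26 and 6.6 CPM in wild type against 5.14 and 5.48 CPM in the mutant, with 0 of 3 tested called and hlh-25, hlh-26 and hlh-27 at 0 throughout.

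Genes with the pattern most like each called gene over the 4 libraries were found by the distance of their centred log2 CPM. For fem-3 they were Y41C4A.12, nlp-13 and acd-5 (distances of 0.013, 0.0222 and 0.0232). For fog-3 they were F07D3.3, acd-1 and F36A4.1 (0.231, 0.261 and 0.335), and for her-1 F19B10.1, the sperm gene spe-49 and F30H5.3 (0.115, 0.142 and 0.144). These distances rest on 4 libraries and are descriptions only.

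**Figure D4:**
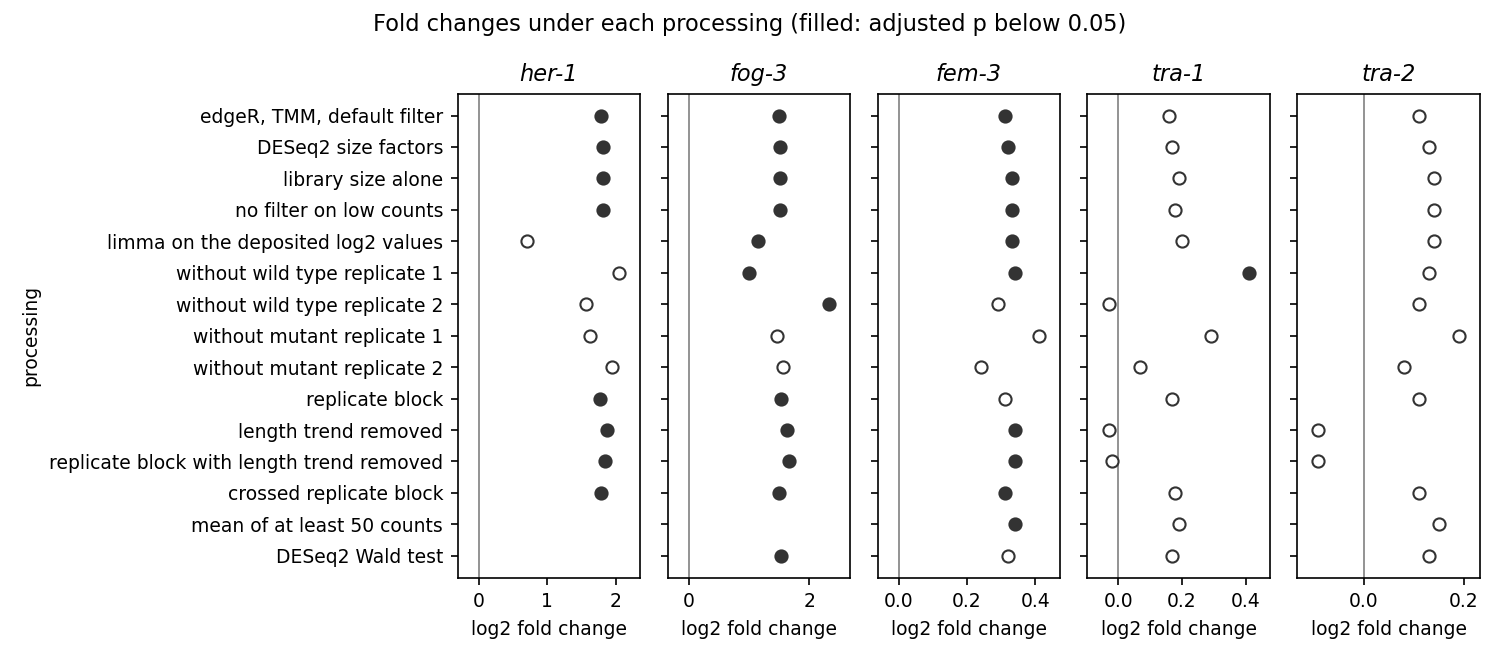
Log2 fold change of her-1, fog-3, fem-3, tra-1 and tra-2 under each processing named on the left (filled: adjusted p below 0.05; no circle: not tested or no adjusted p). Values of fog-3 run from 1.0 to 2.33 and those of fem-3 from 0.24 to 0.41, while tra-1 (-0.03 to 0.41) and tra-2 (-0.09 to 0.19) cross 0.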

How the data were processed

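Total RNA of whole worms was prepared with Trizol and sequenced from ScriptSeq v2 libraries, per the labels' protocols. The authors deposited raw counts per gene and log2 values. Per the values themselves, these deposited log2 values are log2 of 8 plus the count at a shared library total (largest gap 0.000505), so they were not a second measurement. The aligner, counting tool, build, annotation and use of strand behind the counts are not stated in the labels or files used here. Groups were taken from sample titles, 2 libraries each, and no library was a copy of its replicate (chi-square of 30.7 and 9.06 per degree of freedom for wild type and mutant).

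The test was the quasi-likelihood F test of edgeR 4.0.16 in R 4.3.3, with TMM scaling (factors 0.985 to 1.01), the default expression filter and Benjamini-Hochberg adjustment over 13944 genes at 0.05. Standard errors were taken from the log2 fold change and the square root of its F statistic. Symbols were found for 18778 genes, and positions and merged exon lengths came from the Ensembl annotation of WBcel235. The fem-3 to tra-2 ratio used a pseudocount of 0.5. Alternatives were other scalings and filters, DESeq2 1.42.0, limma 3.58.1 on the deposited values, each library left out, a replicate block and a fit with the lowess trend of log2 level on exon length taken out of each library. The fit was checked on simulated data. With 24717311 to 33009708 counts per library, counting error is small except for her-1, fog-3 and other genes of few counts, and precision is limited by having 2 libraries per strain.

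The 10 genes and the gene lists were chosen with earlier results of these data known. The rule for named genes took the 10 genes, the mutated genes, ftr-1, genes whose exons overlap a member, the called genes of each list (up to 5 by size), the most abundant gene of a list with none called, and the 3 nearest patterns. The text gives part of them, and 1 of them is left out of this report. The listed genes mog-2, mog-3, mog-6 and laf-1 and 6 marker genes were not analysed here.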

Additional observations from a re-analysis of the deposited data

How the results depend on the processing

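Over 12 to 14 alternatives each, the direction of her-1, fem-1, fem-3, fog-1, fog-2, fog-3 and tra-3 was the same in every alternative run, and her-1 was called in 7 of 12, fog-3 in 11 of 13 and fem-3 in 9 of 14. The count of the 10 genes called higher was 3 in the edgeR fit, 1 with a mean of at least 50 counts and 1 with DESeq2, all of them promoters of sperm fate, and ranged from 0 to 3 with a library left out (0 to 2 for promoters of sperm fate, 0 to 1 for promoters of oocyte fate). With a library left out, all tested genes gave 961 to 2042 higher and 447 to 2307 lower calls, and the sperm markers 12 to 29 higher and 0 to 1 lower. A fit that leaves a lone library in a group assumes that it varies like the other strain. The cause of these differences was not tested. Leaving a library out also lowers the number of samples, and a stricter filter lowers the number of genes.

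Near 0, log2 fold changes changed sign. For fem-2 the values were 0.00 with a mean of at least 50 counts and with limma, and -0.15 to 0.11 with a library left out. For tra-1 they were -0.03 with the length trend removed, -0.02 with the block as well, and -0.03 to 0.41 with a library left out. For tra-2 they were -0.09 with the length trend removed, with or without the block. With a library left out larp-1 ran from -0.19 to 0.01, ubxn-3 from -0.32 to 0.01, fbf-1 from -0.01 to 0.09 and fbf-2 from -0.05 to 0.1. With the length trend removed fbf-1 had -0.01 and fbf-2 -0.03, and the fem-3 to tra-2 difference was 0.43.

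The labels name nothing but the number that same-numbered libraries share, and their deviations correlated at -0.105 across 11228 genes. Whether they shared a culture or batch was not tested. With the replicate block 1792 genes were higher and 1727 lower, and 2 of the 10 genes were called, since fem-3 was not (0.31, edgeR adjusted p = 0.0685). An alternative chosen later, the crossed pairing, called 1912 genes higher and 2030 lower, with 3 of the 10 genes called higher.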
